A study of Mus musculus with 6 samples.

Results

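A set of 10 genes of the neural plate and of neural progenitors was followed in mouse epiblast stem cells cultured with and without Activin A: Pax6, Six3, Hesx1, Lhx2, Lhx5, Pou3f1, Pou3f2, Nes, Zfp521 and Tubb3. They were chosen by name, with no measured value in the rule but with earlier results of these data known. They are 10 of the 52609 annotated genes with deposited transcripts. All 10 matched 1 gene each, and 7 of them held enough reads to enter the test over 15448 genes. Epiblast stem cells are primed pluripotent cells, derived here from dissected mouse epiblast and kept on inactivated embryonic fibroblasts, so the RNA may hold that of these feeder cells. Both groups of 3 libraries had the growth factor FGF2 (10 ng/mL) and 2 inhibitors, IWP2 (5 µM), which stops cells from releasing Wnt ligands, and SB431542 (2 µM), which acts on the type I receptors of Activin, Nodal and TGF-beta. One group also had Activin A at 20 ng/mL, a ligand of those receptors, and the other had none. The title of the series names the allocation of these cells to ectoderm, which is the question that this comparison addresses.

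The neural plate is the sheet of ectoderm that forms the brain and spinal cord, and in the embryo it arises where signals of the Nodal and BMP type are low. Pax6, Six3, Hesx1, Lhx2 and Lhx5 encode homeodomain factors best known from the forebrain and eye field, Pou3f1 and Pou3f2 encode POU-domain factors of epiblast and neural cells, and Zfp521 encodes a zinc finger factor known to promote neural conversion of pluripotent cells. Nes encodes nestin, an intermediate filament of neural progenitors that other proliferating cells also make, and Tubb3 encodes a beta tubulin typical of neurons.

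Nes and Tubb3 were the only members called lower without Activin A, so the DNA before their starts is shown, in lower case with matches to the SMAD box (CAGAC on either strand) in capitals.
Nes, 235 bases at chr3:87970843-87971077 (plus strand, GRCm38.p6): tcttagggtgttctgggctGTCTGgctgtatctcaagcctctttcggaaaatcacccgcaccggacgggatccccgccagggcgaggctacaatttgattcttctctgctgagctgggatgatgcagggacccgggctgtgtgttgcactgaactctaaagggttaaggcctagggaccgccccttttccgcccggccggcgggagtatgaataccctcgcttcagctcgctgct
Tubb3, 121 bases at chr8:123411303-123411423 (plus strand, GRCm38.p6): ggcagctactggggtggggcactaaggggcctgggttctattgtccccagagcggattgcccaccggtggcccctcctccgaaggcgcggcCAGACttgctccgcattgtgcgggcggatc
Both sequences come from RefSeq promoter windows and stop at the first start of a GENCODE transcript that held reads. In windows of 250 bases before the RefSeq start, the SMAD box matched once for Nes, at position -231 on the strand opposite to the gene, and once for Tubb3, at -159 on the strand of the gene. It is a common word, found in 42.2% of 32851 such windows. Windows of 7 of the 10 members were searched, 9 windows in all. No window was found for Lhx5 or Pou3f1, and Zfp521 was left out of the search, so nothing is said of its matches. The SMAD box also matched in both windows of Pax6, in those of Six3 and Pou3f2 and in 1 of the 2 of Lhx2, and did not match in that of Hesx1. Some windows lie far from the start of the transcript with the most reads. The RefSeq starts of Pax6 lie at -6631 and 6936 bases from that of Pax6-204. For Lhx2 the window with matches ends at -11478 bases from the start of Lhx2-201, and the one without at 549. A FOXH1 word (AATCCAC, 2.10% of windows) matched only for Six3 among the 7 members searched. A POU word (TTTGCAT, 4.12% of windows) and a SOX word (ACAAAGG, 5.08% of windows) matched in none of the 9 windows. These matches are descriptions of letters and not of binding.

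The 6 libraries held 9946521 to 16350923 estimated reads. The shallowest, with Activin A replicate 3, also lay farthest from its group, with a root mean square deviation of 0.140 log2 units over 10012 genes against 0.0681 to 0.112 in the other 5. For replicate 1 without Activin A, 1 of the labels lists Activin A although the title says there was none, and the treatment text of all 6 libraries lists it too. Where leaving out both of these doubted libraries matters, the value is given beside the result. The series mentions different lines that the sample labels do not show, so line and Activin A cannot be told apart. The labels do not name separate cultures, and p-values then measure only the spread between these samples. Of 15448 genes 29.2% passed in edgeR's quasi-likelihood test at an adjusted p of 0.05, 14% higher and 15.2% lower without Activin A, and the median log2 fold change of all tested genes was 0.0012. All 12 epiblast markers were tested, of which 11 were called lower and 1, Sox2, higher, and their summed TPM was 738 to 771 with Activin A and 326 to 349 without.

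The members differed widely in level. On the TPM scale, which is per transcript length and allows comparison between genes, Nes was highest with Activin A at 17.8 ± 0.994 (SD, n = 3), followed by Tubb3 at 12.3 ± 1.64, Pou3f1 at 6.78 ± 0.340, Pax6 at 2.92 ± 0.126, Zfp521 at 2.06 ± 0.134 and Lhx2 at 0.695 ± 0.0760. Lhx5, Pou3f2, Hesx1 and Six3 were all below 0.2 TPM, at means of 0.148, 0.0999, 0.0864 and 0.0455. Down to Lhx5 each gene stood apart from the next, while the ranges of Pou3f2, Hesx1 and Six3 overlapped from each to the next. Without Activin A the order changed. Pou3f1, at 7.02 ± 0.446 TPM, stood above Tubb3, at 5.08 ± 0.246, Zfp521 reached 3.58 ± 0.161, which overlapped Pax6 at 3.19 ± 0.633, and Hesx1 reached 0.735 ± 0.298, which overlapped Lhx2 at 1.20 ± 0.295. Lhx5, Pou3f2 and Six3 were then the lowest, and neighbours among these overlapped.

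**Figure D1:**
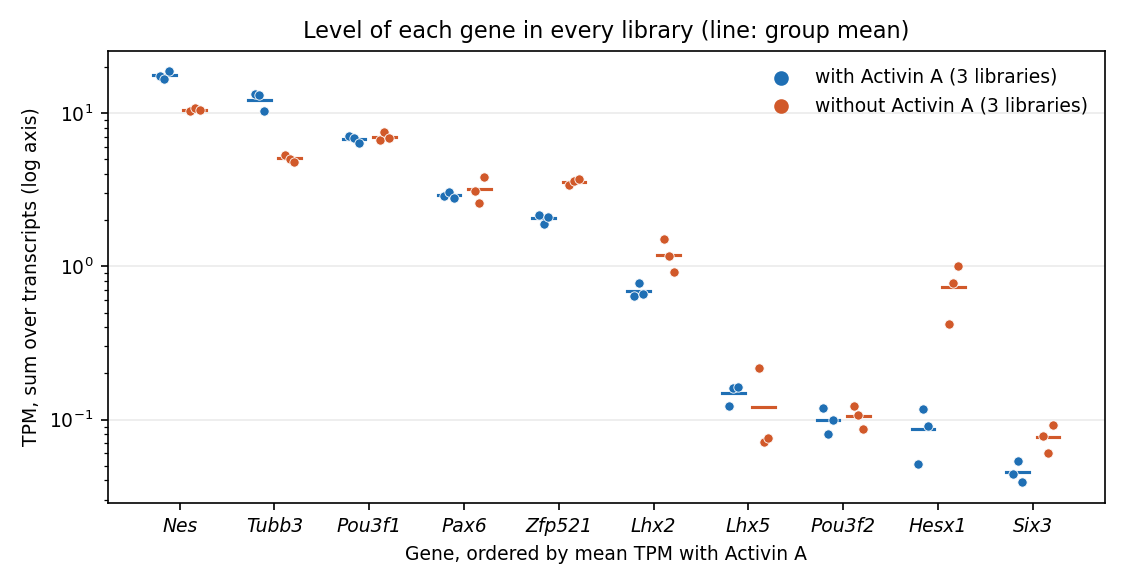
TPM of each gene in every library, on a log axis, with a line at the mean of 3 libraries per group. Nes and Tubb3 sit lower and Zfp521, Lhx2 and Hesx1 higher without Activin A, while Pou3f1 lies near 7 TPM in both groups.

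Nes was lower without Activin A in every library. On the scale of normalised CPM it held 167, 166 and 165 in the 3 libraries with Activin A, in order of replicate, and 96.6, 97.1 and 96.7 without. The groups did not overlap, and their SDs were 0.720 and 0.266 CPM. Nes was 1.71-fold lower without Activin A, or -0.78 on the log2 scale (standard error 0.05, 95% interval -0.88 to -0.68), with an edgeR adjusted p of 1.44e-08. In bulk RNA, fewer cells that express a gene and less of its RNA per cell cannot be told apart. The gene (ENSMUSG00000004891.16) is at 87971078 to 87980451 of chromosome 3 (GRCm38), and none of its words of 31 bases occurs in another gene's transcripts.

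Tubb3 showed the largest fall among the tested members. It held 32.0, 34.5 and 25.2 CPM with Activin A and 12.6, 10.6 and 12.4 CPM without. Replicate 3 was the lowest of the group with Activin A, and still stood above every library without it. The gene was 2.60-fold lower, with a log2 fold change of -1.38, a standard error of 0.11 and a 95% interval of -1.62 to -1.14 (edgeR adjusted p = 3.28e-07). Without both doubted libraries the log2 fold change was -1.54 (edgeR adjusted p = 6.22e-10). Tubb3 (ENSMUSG00000062380.4, chromosome 8, 123411424 to 123422015) shares 3.21% of its words with other genes, chiefly Tubb6. Of 12 neuron markers, among which Tubb3 is itself 1, 7 were called lower, 0 higher and 5 did not pass, beside 15.2% called lower among all tested genes. None was without reads, and their summed TPM was 386 to 411 with and 178 to 220 without Activin A. Most of these sums came from Stmn2, at means of 345 TPM with and 167 TPM without Activin A.

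Zfp521 and Lhx2 were higher without Activin A. Zfp521 held 20.8, 19.0 and 18.8 CPM with Activin A and 32.5, 32.8 and 35.5 CPM without. The 3 libraries without Activin A all stood above the others. The change was 1.71-fold, or 0.78 on the log2 scale (standard error 0.07, 95% interval 0.62 to 0.94), with an edgeR adjusted p of 1.89e-06. The gene (ENSMUSG00000024420.9) lies on chromosome 18 at 13687013 to 13972787 and is represented by 1 transcript in the files.

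Lhx2 rested on far fewer reads, at 22, 26 and 8 with Activin A and 39, 37 and 34 without. In CPM these were 1.35, 1.90 and 0.798 against 2.76, 2.49 and 2.54. The groups did not overlap, and the lowest value was that of the shallowest library. The gene was 1.87-fold higher without Activin A, with a log2 fold change of 0.90, a standard error of 0.26 and a 95% interval of 0.34 to 1.46 (edgeR adjusted p = 0.0176). That call was lost in 6 of 18 other settings. It did not hold on leaving out replicate 1 with Activin A (edgeR adjusted p = 0.0689), replicate 1 without it (edgeR adjusted p = 0.0638) or both doubted libraries, where the log2 fold change was 0.64 (edgeR adjusted p = 0.0978). Nor did it hold with DESeq2 (adjusted p = 0.0610) or with a transcript length offset in edgeR (log2 fold change 0.70, adjusted p = 0.143). On log2(TPM + 1), a scale that understates the change of low genes, limma-trend gave 0.37 (adjusted p = 0.0888). Lhx2 (ENSMUSG00000000247.11) lies on chromosome 2 at 38339281 to 38369733.

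Feeder fibroblast markers moved in both directions beside these genes. Of 20 tested, 4 were called higher, 8 lower and 8 did not pass, beside 14% higher and 15.2% lower among all tested genes. None of the 20 was without reads, and their summed TPM was 729 to 846 with and 1091 to 1118 without Activin A. The rises with the smallest p-values were those of Acta2 and Col1a2, a smooth muscle actin and a collagen gene, at log2 fold changes of 1.28 and 0.78, and Col3a1 and Lox fell by 1.21 and 1.07 on the log2 scale (edgeR adjusted p = 4.17e-09 for Col3a1, 2.63e-06 for Lox, 1.15e-10 for Acta2 and 1.61e-08 for Col1a2). The part of feeder RNA in the values of Nes, Zfp521, Lhx2 and Tubb3 was not tested.

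Hesx1, a homeodomain repressor of the anterior neural plate and pituitary, held the fewest reads with Activin A. It had 1, 2 and 1 reads with Activin A and 7, 13 and 16 without, and did not pass the filter on low counts. Every library without Activin A exceeded every library with it. Over the pooled reads, 4 against 36, and after scaling for library size, the ratio was 8.52 with an exact binomial 95% interval of 3.05 to 32.9, which covers counting error only. With no filter on low counts, edgeR gave 2.99 on the log2 scale (standard error 0.63, adjusted p = 4.41e-05). The gene also entered the test when any 1 library with Activin A was left out, and when replicate 1 without it was, since the filter then asked for fewer libraries, with edgeR adjusted p-values of 0.00138 to 0.0165. A gene that enters only through the group where it is high had to differ, so these values are descriptive. Hesx1 (ENSMUSG00000040726.10, chromosome 14, 26994416 to 27002329) shares none of its words with other genes.

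Six3, a repressor of posterior fate in the forebrain and eye field, and Lhx5, a LIM-homeodomain factor of the early forebrain, were also below the filter. Six3 had 4, 4 and 2 reads with Activin A and 6, 3 and 6 without, and the groups overlapped in reads and in CPM. In TPM they did not, at 0.0439, 0.0538 and 0.0389 with Activin A and 0.0775, 0.0607 and 0.0920 without. The pooled ratio was 1.42, with a 95% interval of 0.596 to 3.53 for counting error. Lhx5 had 8, 9 and 6 reads with Activin A and 12, 4 and 4 without, also overlapping, with a ratio of 0.823 and an interval of 0.429 to 1.57. Differences within these intervals were not detectable at this depth. Both genes overlap exons of genes on the opposite strand, and Pou3f1 does too. Those of Six3 (Six3os1 and Gm28528) held 0 to 7 reads per library, that of Lhx5 (Gm27199) 0 to 2 and that of Pou3f1 (Gm2164) 1 to 3, and the use of strand in counting is not given in the sources used here. Six3 (ENSMUSG00000038805.10) lies on chromosome 17 at 85613608 to 85629302 and Lhx5 (ENSMUSG00000029595.9) on chromosome 5 at 120431699 to 120441223.

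**Figure D2:**
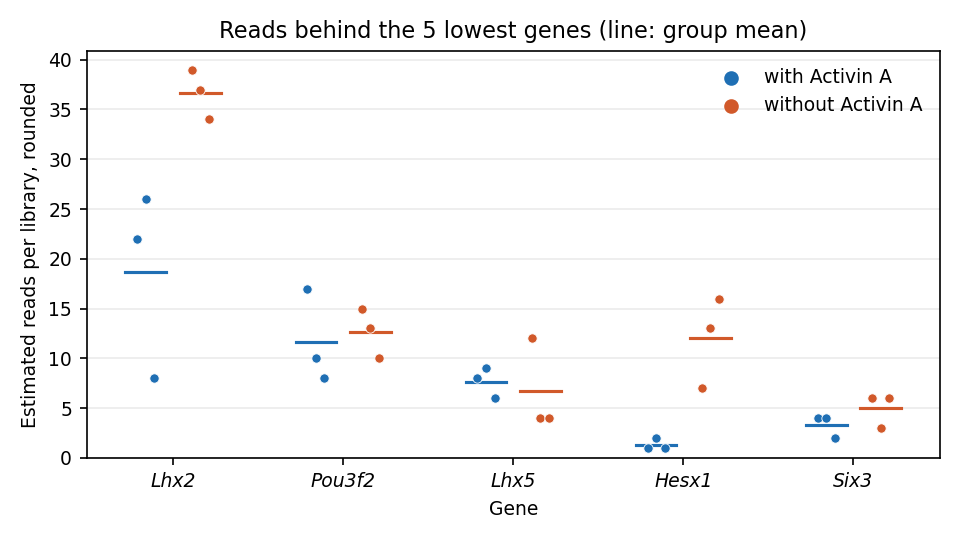
Estimated reads per library, rounded, for the 5 members with the fewest reads, with a line at each group mean. Hesx1 has 1 or 2 reads in the libraries with Activin A and 7 to 16 without, whereas the groups of Pou3f2, Lhx5 and Six3 overlap.

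Pax6, a paired and homeodomain factor of eye and brain, did not pass. It held 6.66, 6.44 and 5.99 CPM with Activin A and 7.87, 7.48 and 7.70 CPM without, on 60 to 111 reads per library. The CPM values did not overlap, but the difference was small, at 0.26 on the log2 scale (standard error 0.12, 95% interval 0.01 to 0.51), with an edgeR adjusted p of 0.110. In TPM the groups did overlap, at 2.89, 3.06 and 2.81 with Activin A and 3.11, 2.60 and 3.86 without, and the transcript length offset in edgeR gave a log2 fold change of 0.07 (adjusted p = 0.848). Pax6 (ENSMUSG00000027168.21) lies on chromosome 2 at 105668900 to 105697364.

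Both POU factors kept overlapping values. Pou3f1, also known as Oct6, held 41.6, 41.8 and 34.7 CPM with Activin A and 38.8, 41.7 and 39.8 CPM without. Its log2 fold change was 0.02 with a 95% interval of -0.14 to 0.18 (edgeR adjusted p = 0.898), and it was -0.0154 with upper-quartile scaling. Pou3f2, also known as Brn2, held 8 to 17 reads per library and a log2 fold change of 0.04 with a much wider interval of -0.64 to 0.73 (edgeR adjusted p = 0.952). The interval of Pou3f2 includes a change of 1.5-fold in either direction, and that of Pou3f1 does not. Both genes lie on chromosome 4, Pou3f1 (ENSMUSG00000090125.3) at 124656807 to 124660655 and Pou3f2 (ENSMUSG00000095139.2) at 22482780 to 22488366.

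Of the 7 tested members, 2 were called higher and 2 lower, and 3 did not pass, beside 29.2% called among all genes. The median log2 fold change of the 7 was 0.04. For 5 of the 7 the CPM values of the groups did not overlap, beside 42.9% of all tested genes, and the low Hesx1 did not overlap either. The calls for Nes, Tubb3 and Zfp521 held in all 18 other settings, with log2 fold changes of -0.84 to -0.70, -1.54 to -1.12 and 0.58 to 0.83.

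**Figure D3:**
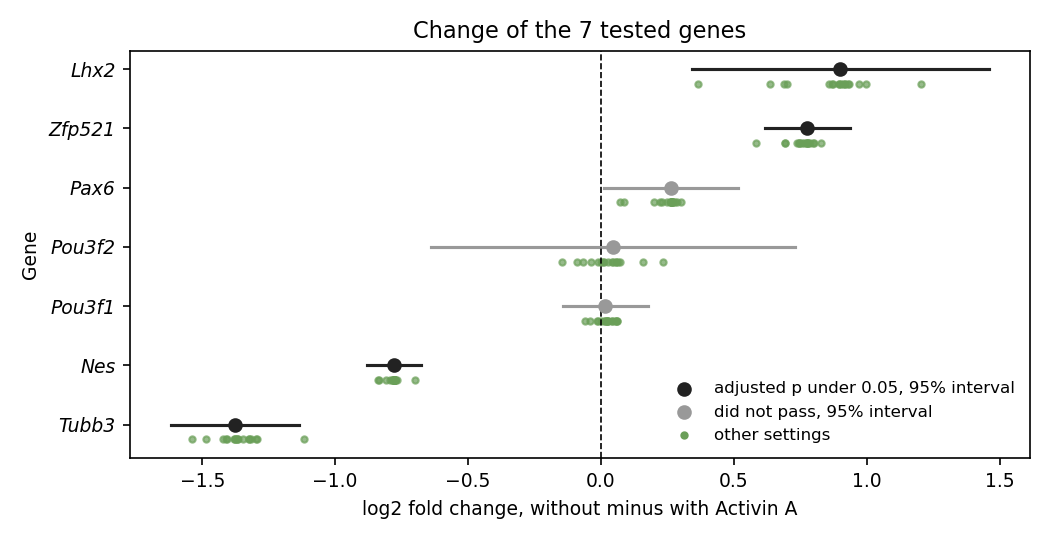
Log2 fold change of the 7 tested members, without minus with Activin A, with the 95% interval of edgeR's quasi-likelihood fit and, in green, the values in the other settings. Nes and Tubb3 lie left of 0 and Zfp521 right of 0 in all settings, while Pou3f1 and Pou3f2 lie on both sides.

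Lhx5, Pou3f1, Pou3f2 and Zfp521 have 1 deposited transcript each, so their reads could not be split. Among the other members, the reads of Nes, Tubb3, Lhx2 and Hesx1 came chiefly from 1 annotated transcript. Nes-201 (6126 bases) held 81.8% ± 7.59 of Nes TPM with and 87.5% ± 10.1 without Activin A (SD, n = 3), and Tubb3-201 (1868 bases) held 93.6% ± 6.51 and 86.7% ± 10.3 of Tubb3 TPM. In both the groups' shares overlapped. Nes-201 alone held 2119, 1793 and 1508 reads with Activin A and 1104, 1438 and 1112 without, and Tubb3-201 held 500, 461 and 253 against 169, 144 and 165, so the leading transcripts were lower too. All Hesx1 reads were assigned to Hesx1-202, which begins 5946 bases before the RefSeq start, where Hesx1-201 begins. Lhx2-201 had 18.6, 22.9 and 5.3 reads with Activin A and at least 28.6 in each library without, and took 37.0% ± 14.8 and 45.8% ± 14.0 of Lhx2 TPM. With Activin A the 375 bases of Lhx2-205 took more of the TPM, 43.7% ± 14.0, on at most 0.9 reads per library, and this transcript was at 0% without. Pax6 was split over 17 of its 26 transcripts, and Pax6-204, the transcript with the most reads, took 24.3% ± 16.1 of Pax6 TPM with and 29.5% ± 16.1 without Activin A. In TPM the larger share with Activin A was that of Pax6-210, a processed transcript of 983 bases with no annotated coding sequence, at 41.9%, 37.7% and 48.5%, against 26.7%, 29.1% and 22.5% without. Its shares did not overlap between the groups, on 15.1 to 23.7 reads with Activin A and 12.7 to 13.9 without, and this difference was not tested. Pax6-210 is named here after its values were seen.

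Within their families the members ranged from dominant to minor. Pou3f1 held 93.8% ± 0.819 of the summed TPM of the 4 class 3 POU genes with Activin A and 94.7% ± 0.622 without. Pax6 held 82.1% ± 3.75 and 84.8% ± 2.58 of 7 PAX genes. Lhx2 held 23.4% ± 2.48 and 26.4% ± 2.46 of 12 LIM-homeobox genes, below Lmx1b, a factor of roof plate and midbrain, at 39.8% ± 8.95 and 55.6% ± 2.59. For these 3 members the groups overlapped. Six3 was a minor gene of its homeobox family of 6 at 0.698% ± 0.153 and 1.26% ± 0.281, far below Six4, the most abundant of that family, at 57.4% ± 1.59 and 60.9% ± 2.95. The Six3 shares did not overlap, but they rest on 2 to 6 reads per library, which overlapped. With Activin A all these reads were assigned to Six3-203 (3680 bases). In replicate 2 without it all were assigned to the shorter Six3-202 (2419 bases).

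Tubb3 was a small part of the beta tubulin pool and became smaller. It held 1.04%, 1.06% and 0.821% of the TPM of 8 beta tubulin genes with Activin A and 0.409%, 0.388% and 0.372% without, while the summed TPM of the 8 was 1259 ± 23.2 and 1303 ± 1.60. Tubb5, named as the most abundant of the 8 after values were seen, did not pass, with a log2 fold change of 0.06 (edgeR adjusted p = 0.428). Nes likewise went from 4.26% ± 0.274 to 3.06% ± 0.0355 of 8 intermediate filament genes, of which vimentin (Vim), the most abundant and named for that, made up 89.1% ± 0.535 and 93.1% ± 0.230. Vim fell by 0.24 on the log2 scale (edgeR adjusted p = 0.00182). Zfp521 took 13.4%, 12.2% and 32.7% of the summed TPM of Zfp521 and its paralog Zfp423 with Activin A and 27.0%, 23.3% and 23.2% without. The value of 32.7% belongs to the shallowest library, and the groups overlapped.

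**Figure D4:**
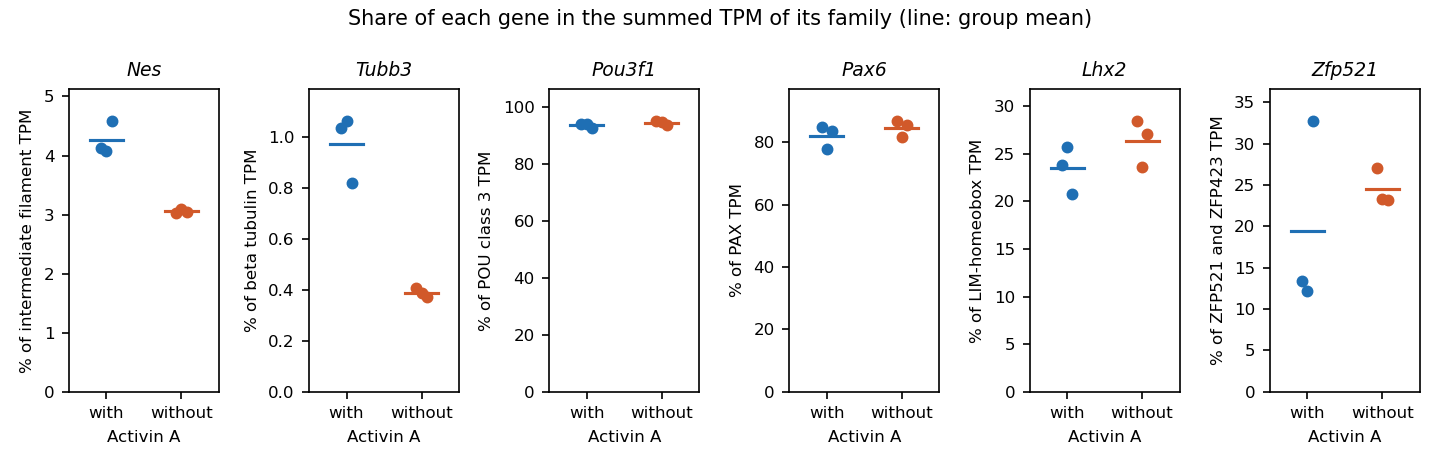
Share of a member in the summed TPM of the listed genes of its family, in percent, for each library with a line at the group mean. The shares of Nes and Tubb3 are lower in all 3 libraries without Activin A, and those of Pou3f1, Pax6, Lhx2 and Zfp521 overlap.

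Other neural plate and progenitor genes moved in both directions. Of 33 in the list 26 were tested, and 11 were called higher, 10 lower and 5 did not pass. Among all tested genes 14% were called higher and 15.2% lower. The median log2 fold change of the list was 0.13 beside 0.0012 over all genes. The list shares Zic2, Otx2 and Sox2 with the epiblast markers, of which Zic2 and Otx2 fell and Sox2 rose. Ptn, a secreted growth factor, and Zeb2, a zinc finger repressor that binds SMAD proteins, rose by 1.17 and 1.09 on the log2 scale (edgeR adjusted p = 1.09e-09 and 1.50e-08), and Zic2 and Zic5, zinc finger factors of the dorsal neural plate, fell by 0.74 and 0.81 (edgeR adjusted p = 4.88e-08 and 2.99e-07). Zeb2 was not called with the length offset in edgeR (adjusted p = 0.228) or with limma-trend (adjusted p = 0.273). The other 7 had too few reads to be tested, among them the eye field factors Rax, with 1 to 3 reads per library, and Six6, with 0 to 7, named here after their values were seen. In this they resembled Six3, with 2 to 6.

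Genes of positions behind the forebrain were also mixed. Of 22 in the list 14 were tested, of which 4 were called higher, 5 lower and 5 did not pass. The shares among all tested genes were 14% higher and 15.2% lower. The median log2 fold change of the list was -0.16. Gbx2 and En1, factors of hindbrain and of the midbrain-hindbrain boundary, went from 3.24 ± 0.524 to 17.5 ± 1.09 CPM and from 13.4 ± 0.344 to 32.5 ± 1.71 CPM (SD, n = 3; edgeR adjusted p = 2.79e-09 and 1.50e-08). Hoxa3 and En2 fell, from 1.24 ± 0.328 to 0.168 ± 0.0874 CPM and from 1.06 ± 0.245 to 0.186 ± 0.100 CPM (edgeR adjusted p = 2.93e-04 and 8.57e-04), and Hoxa3 was not called with the length offset or with limma-trend. Both passed the filter on low counts only through the group with Activin A, on 1 to 4 reads per library without it. Their p-values are therefore descriptive, and calls of this kind are included in the counts of this and other lists. The 5 falls numbered 2 or 3 on leaving out any library other than the shallowest, and 2 with DESeq2 or a filter of 1 CPM in 3 libraries.

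Neurogenic and early neuron genes were mostly lower without Activin A, as Tubb3 was. Of 31 in the list, which does not hold Tubb3, 27 were tested, of which 18 were called lower, 2 higher and 7 did not pass. Among all tested genes 15.2% were called lower and 14% higher. The median log2 fold change of the list was -0.77. Nefl, a neurofilament gene, went from 120 ± 6.39 to 52.4 ± 2.30 CPM and Stmn2, a microtubule regulator of growing axons, from 426 ± 2.32 to 235 ± 4.98 CPM (SD, n = 3; edgeR adjusted p = 1.94e-09 and 3.45e-09). Onecut1, a homeodomain factor, and Gap43, a growth cone protein, were the 2 that rose, by 2.38 and 0.43 on the log2 scale (edgeR adjusted p = 1.10e-04 and 1.29e-04). Gap43 was not called with limma-trend (adjusted p = 0.0772), and Onecut1 was at 0.356 ± 0.172 CPM with Activin A. Onecut1 passed the filter on low counts only through the group without Activin A, so its p-value is descriptive. The falls numbered 11 with the length offset and 7 with limma-trend. The list of neuron markers shares 9 of its 12 genes with this list.

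**Figure D5:**
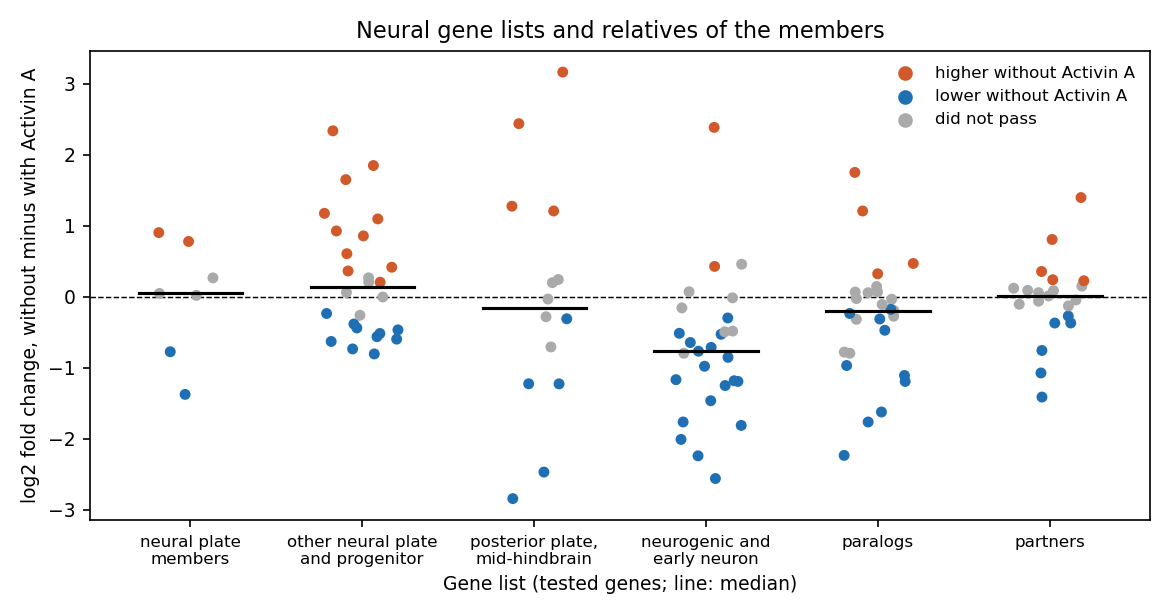
Log2 fold change, without minus with Activin A, of each tested gene in 6 lists, coloured by call, with a line at the list's median. The neurogenic and early neuron genes lie mostly below 0, with a median of -0.77, while the members and the other neural plate genes spread to both sides.

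Partners of the members, which are cofactors of these factors, moved in both directions. Of 24, 23 matched a gene, as Tle5 was not found under that name, and 21 were tested. Of these 5 were called higher, 6 lower and 10 did not pass, with a median log2 fold change of 0.0093. For this list and the next, the shares among all tested genes were 14% higher and 15.2% lower. Among LIM-domain partners, Lmo1 rose by 1.40 and Ldb2, which encodes a LIM-domain binding protein, fell by 1.08 on the log2 scale (edgeR adjusted p = 5.56e-04 and 2.64e-04). Eya4, a member of the EYA family of cofactors of Six3 and its relatives, rose by 0.80 and the histone deacetylase gene Hdac2 fell by 0.27 (edgeR adjusted p = 6.53e-05 and 0.00318). Hdac2 was not called with limma-trend (adjusted p = 0.113). Of 41 paralogs of the members 27 were tested, of which 4 were called higher, 10 lower and 13 did not pass, with a median of -0.20. Leaving out replicate 1 with Activin A gave 6 falls, and leaving out replicate 3 without it gave 6 falls and 2 rises. Lmx1b and Pou2f1, a broadly expressed POU factor, rose by 1.75 and 0.47, and Pou5f1, which encodes OCT4, fell by 1.63 on the log2 scale (edgeR adjusted p = 1.30e-07, 9.76e-05 and 4.73e-11). With limma-trend Lmx1b and Pou2f1 were not called (adjusted p = 0.0563 and 0.218), nor was Pou2f1 with the length offset in edgeR (adjusted p = 0.297).

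The genes whose 6 centred log2 CPM values lay nearest to those of each called member were sought among 10899 candidates of 5 CPM or more on average. For Nes these were Msantd3 and Enpp3, at distances of 0.043 and 0.047 log2 units and fold changes of -0.77 and -0.75. For Tubb3 they were the adhesion receptor gene Adgrb2 and the synaptic gene Arc, at 0.168 and 0.176, and for Zfp521 Specc1 and Tax1bp3, at 0.109 and 0.112. The nearest to Lhx2 were farther, Rgma, a repulsive guidance molecule, at 0.377 and Pakap at 0.401. These distances rest on 6 libraries in 2 groups, so any gene with a like change lies near. At a minimum of 20 CPM the gene nearest to Tubb3 was Chchd10, at 0.287.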

How the data were processed

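RNA of 6 libraries, 3 per group, was made with a stranded mRNA kit, per the labels' protocols. The authors deposited, for 133618 transcripts per library, estimated counts and TPM from Salmon, per the file headers and the submitters' processing notes. The version, index and strand setting of Salmon are not stated in those sources. Transcripts were matched to GENCODE M21 with versions ignored (133399 matched, 219 did not), and both values were summed per gene. Rounded sums were tested with edgeR 4.0.16 (filterByExpr, TMM scaling, robust quasi-likelihood test, Benjamini-Hochberg threshold of 0.05) in R 4.3.3. Alternatives tried were DESeq2 1.42.0, limma-trend (limma 3.58.1) on log2(TPM + 1), scaling by RLE or upper quartiles, a filter of 1 CPM in 3 libraries or none, a transcript length offset, protein-coding genes alone, a GC and length offset (mgcv 1.9.3), a replicate block and leaving out libraries. Leaving out both doubted libraries was chosen after seeing the data. The edgeR test alone was checked on simulated counts, drawn from means and dispersions that edgeR estimated from these libraries. Such counts follow the fitted model, so the check cannot show how well it suits the data. CPM were computed from TMM-scaled library sizes. Pooled reads of low genes were compared with exact binomial intervals. Genes were named from the 2 called genes with the smallest p in each direction of each list, though for the marker lists of epiblast (other than Sox2), surface ectoderm, neural crest, and mesoderm and endoderm only counts are given, and for the called members the 2 protein-coding genes nearest by Euclidean distance. The members and lists were chosen with earlier results of these data known, and family sets came from the paralog list after values were seen. Replicates within each group differed beyond sampling noise.

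Markers of other lineages were also summed. Beside their counts, 14% of all tested genes were called higher and 15.2% lower. Of 14 surface ectoderm markers 9 were tested, with 4 called higher and 2 lower (summed TPM 147 to 161 with and 162 to 170 without Activin A). Of 12 neural crest markers 4 were called higher and 4 lower (21.8 to 23.9 and 33.8 to 35.1). Of 14 mesoderm and endoderm markers 4 were tested, with 2 higher and 1 lower (2.33 to 3.05 and 4.08 to 4.21).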

Additional observations from a re-analysis of the deposited data

How the results depend on the processing

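With limma-trend on log2(TPM + 1), 778 genes were called higher and 781 lower, and with the transcript length offset in edgeR 937 and 1113, against 2155 and 2350. Upper-quartile scaling gave 1737 and 2702, so that 39.1% of calls were higher against 47.8%. Leaving out 1 library at a time gave 1483 to 2808 higher and 1763 to 2881 lower. DESeq2 called 1675 genes higher and 1690 lower. Of the members, 1 was called higher with DESeq2, limma-trend and the length offset, and 2 to 3 on leaving out 1 library, where Lhx2 could be lost and Hesx1 gained. Hesx1 entered those fits only through the group where it is high, so its part in these counts is descriptive. Nes and Tubb3 were called lower in every setting. The log2 fold change of Pou3f1 was -0.0154 with upper-quartile scaling, -4.65e-06 with the length offset, -0.0412 without both doubted libraries, and -0.0590 to 0.0587 on leaving out 1 library. That of Pou3f2 was -0.0378 with the GC and length offset, -0.0103 with that offset and the replicate block, -0.145 without both doubted libraries, and -0.0914 to 0.234 on leaving out 1 library. Lhx2-201 held 79.5% and 82.6% of Lhx2 reads with and without Activin A, more than of TPM. The causes were not tested. Feeder marker falls numbered 3 with limma-trend and 4 with the length offset, against 8.

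Same-numbered replicates did not deviate together (correlations of -0.0249, -0.0521 and -0.0570, and 0 of 3 correlated best with their own number), so the numbers were not taken as pairs. With the replicate block edgeR called 2125 genes higher and 2297 lower, with 2 members higher and 2 lower. Depth limited Six3, Lhx5, Hesx1 and Pou3f2, with at most 17 reads in a library.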
